A study of Mus musculus with 11 samples.

Results

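The cytosolic ribosomal proteins are described here in mouse 3T3-L1 cells given a thiazolidinedione drug. Probe sets were taken when the annotation paired them with a single gene whose symbol starts with Rpl or Rps and a digit, starts with Rplp, or equals Rpsa. Kinases of Rps6 (3 probe sets) and symbols with the pseudogene suffix -ps were left out. This gave 49 of the 12422 probe sets that are not array controls, and they cover 35 of the 8251 genes that the annotation names singly. Of these genes 17 belong to the large subunit (Rpl and Rplp) and 18 to the small subunit (Rps and Rpsa). The rule uses symbols alone and no measured value. It also takes relatives of ribosomal proteins that are not standard subunits of the ribosome, namely Rpl7l1, Rpl39l, Rps27l and Rps4l. The gene table classes Rps4l as a transcribed pseudogene, and it is counted with the small subunit because its symbol meets the rule. A further 39 probe sets of ribosomal proteins are paired with several genes, mostly a ribosomal protein gene and its pseudogenes, and they are not members. For this reason Rplp1, Rps6, Rpl3, Rpl5 and Rpl22l1 have no member probe set.

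The ribosome translates messenger RNA into protein. Its small subunit holds the messenger RNA and reads the code, and its large subunit joins amino acids into a chain. Ribosomal proteins are made in matched amounts in all cells, and their transcripts are among the most abundant in a growing cell. In vertebrates most of these transcripts begin with a run of pyrimidines, the 5′ terminal oligopyrimidine (TOP) tract, through which mTOR signalling and the RNA-binding protein LARP1 control their translation. Control of this family is therefore largely at translation, which arrays of total RNA do not measure. In adipocytes insulin is a main signal to mTOR. Several members serve as reference genes in expression assays, Rplp0 most of all in adipocyte work.

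Cells were treated for 24 h with pioglitazone at 20 µM (2 arrays), rosiglitazone at 1 µM (3 arrays) or troglitazone at 20 µM (3 arrays), and vehicle cells received 0.1% DMSO (3 arrays). The labels do not state the DMSO content of the drug-treated cultures. All 3 drugs are agonists of the nuclear receptor PPARγ, the regulator of adipocyte genes. Total RNA of each of the 11 samples was hybridised to its own one-colour array. By their titles the arrays form 2 sets: replicates 1 and 2 of every group (set 1, 8 arrays) and replicate 4 of rosiglitazone, troglitazone and vehicle (set 2, 3 arrays). No pioglitazone array is in set 2. 3T3-L1 is a clonal mouse fibroblast line that can be turned into adipocytes, and the labels do not give the state of these cells. They also do not say whether cultures were separate, so p-values measure only the spread between these samples, which may be technical.

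Signals of markers place adipocyte and fibroblast transcripts in the same samples. In vehicle cells the adipocyte hormone Adipoq had a mean signal of 46880 and the lipase Lpl of 23197. Dlk1 and Col3a1, which mark preadipocytes and fibroblasts, had 1780 and 1979. Signals of different probe sets cannot be set against each other, so these values show presence and no proportion of cells. Of the adipocyte markers 8 of 10 were tested, and Cidec, a lipid droplet protein and known PPARγ target, rose with pioglitazone (1.43), rosiglitazone (1.16) and troglitazone (1.07, log2 fold changes), while Retn (resistin) fell with rosiglitazone (-0.84) and troglitazone (-1.68). Of the preadipocyte and fibroblast markers 9 of 10 were tested, and Fn1 (fibronectin) fell with all 3 drugs and the collagen genes Col1a1 and Col3a1 with troglitazone. Of the macrophage markers 6 of 8 were tested, and Cd14 fell with troglitazone (-1.49). No skeletal muscle marker (8 of 8 tested) or epithelial marker (5 of 6 tested) passed for any drug. Pairwise correlations of log2 signals lay between 0.82 and 0.945. The part of these shifts in the ribosomal values was not tested, and in a bulk sample fewer cells of a type cannot be told apart from less RNA per cell.

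The start of the transcript is the feature most tied to this family, so annotated starts were read from RefSeq promoters of GRCm38.p6, which hold 28 of the 35 genes in 37 windows. Each sequence below runs 5′ to 3′ over 15 bases before the annotated start and 15 from the start on. Capitals mark 1 run per sequence, a C followed by at least 4 pyrimidines (C or T) on the sense strand. The run is read from the annotated start on where that base qualifies (the first 5 genes), and otherwise from a base at most 10 away from the start. Other runs, and pyrimidines just before the marked part, stay in lower case. In Rps18, Rps10, Rps27, Rpl35a and Rpl7a the run also extends further upstream than marked. Rpl7a has the longest marked run, read from the search limit of 10 bases before the start. Rps19 and Rpsa are shown because their pioglitazone values stood out, and Rplp0 as the common reference gene.
Rps18: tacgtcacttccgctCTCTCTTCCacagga
Rps10: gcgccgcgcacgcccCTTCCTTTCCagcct
Rps27: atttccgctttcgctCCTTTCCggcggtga
Rpl38: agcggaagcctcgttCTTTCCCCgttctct
Rpl35a: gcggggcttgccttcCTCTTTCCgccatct
Rpl7a: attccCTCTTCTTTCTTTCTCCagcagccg
Rps19: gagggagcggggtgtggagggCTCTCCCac
Rpsa: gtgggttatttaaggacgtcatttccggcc
Rplp0: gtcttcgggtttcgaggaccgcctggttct

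On the minus strand lie Rps18 (chr17:33955651-33955680), Rps10 (chr17:27635230-27635259) and Rps27 (chr3:90213634-90213663). On the plus strand lie Rpl38 (chr11:114668565-114668594), Rpl35a (chr16:33056467-33056496) and Rpl7a (chr2:26910792-26910821). Also on the plus strand are the last of 3 annotated starts of Rps19 (chr7:24884898-24884927), Rpsa (chr9:120127751-120127780) and Rplp0 (chr5:115559452-115559481). Such a C with its pyrimidines stood exactly at an annotated start in 5 of 28 member genes (17.9%) and in 813 of 27025 genes of the table (3.01%). Within 10 bases of a start it stood in 17 of 28 member genes (60.7%) and in 34.4% of all genes. The letters TATAAA, on either strand of the 300-base window, occurred in 4 of 28 member genes (14.3%, against 15.7% of all genes), and CACGTG, the same on both strands, in 3 of 28 (10.7%, against 8.09%). The marked run holds only C and T and cannot contain either of these motifs. These are matches of letters at annotated starts, which may differ from the start used in these cells.

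On the arrays most ribosomal protein transcripts gave strong signals. Of the 35 genes 26 lay above the floor of 73.7 on every array, 12 of the large and 14 of the small subunit, and all 35 passed the filter of 2 arrays above the floor. The floor is the 25th percentile of all signals, and lower signals were raised to it. Where a gene has several tested probe sets, the brightest on average stands for it. Probes bind with different strength, so signals cannot be set against each other between probe sets. The brightest members were Rpl41 (54786 to 96826), the smallest protein of the ribosome, and 2 proteins of the small subunit, Rps28 (29628 to 45937) and Rps18 (24830 to 45240). The 9 genes with arrays at the floor were Rpl22, Rpl32, Rpl35a, Rpl39, Rpl39l, Rps14, Rps15, Rps20 and Rps4l. Rpl32, Rps14 and Rps15 were at the floor on 8 of 11 arrays each. The dimmest tested probe sets belonged to Rps15 and to second probe sets of Rps4x and Rps4l.

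Within a group many members differed between the sets of arrays, as given further on. After the terms for group and set were taken out, the median residual standard deviation was 0.21 (log2) over the 35 genes, against 0.40 over the 5773 other probe sets brighter than the members' lower quartile. Those probe sets are dimmer at the median than the members. The member probe sets held 4.14% and 4.44% of the summed signal on the pioglitazone arrays, 3.54% to 4.48% on the rosiglitazone arrays, 3.51% to 4.72% on the troglitazone arrays and 3.40% to 4.75% on the vehicle arrays. These ranges overlap between all groups when the sets are pooled. Within set 1 both pioglitazone arrays lay above both vehicle arrays (3.63% and 3.40%). The vehicle array of set 2 had 4.75%, and pioglitazone has no array in that set. The authors had scaled every array to the same trimmed mean, so the values show a transcript's share of its array and not an amount per cell.

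**Figure D1:**
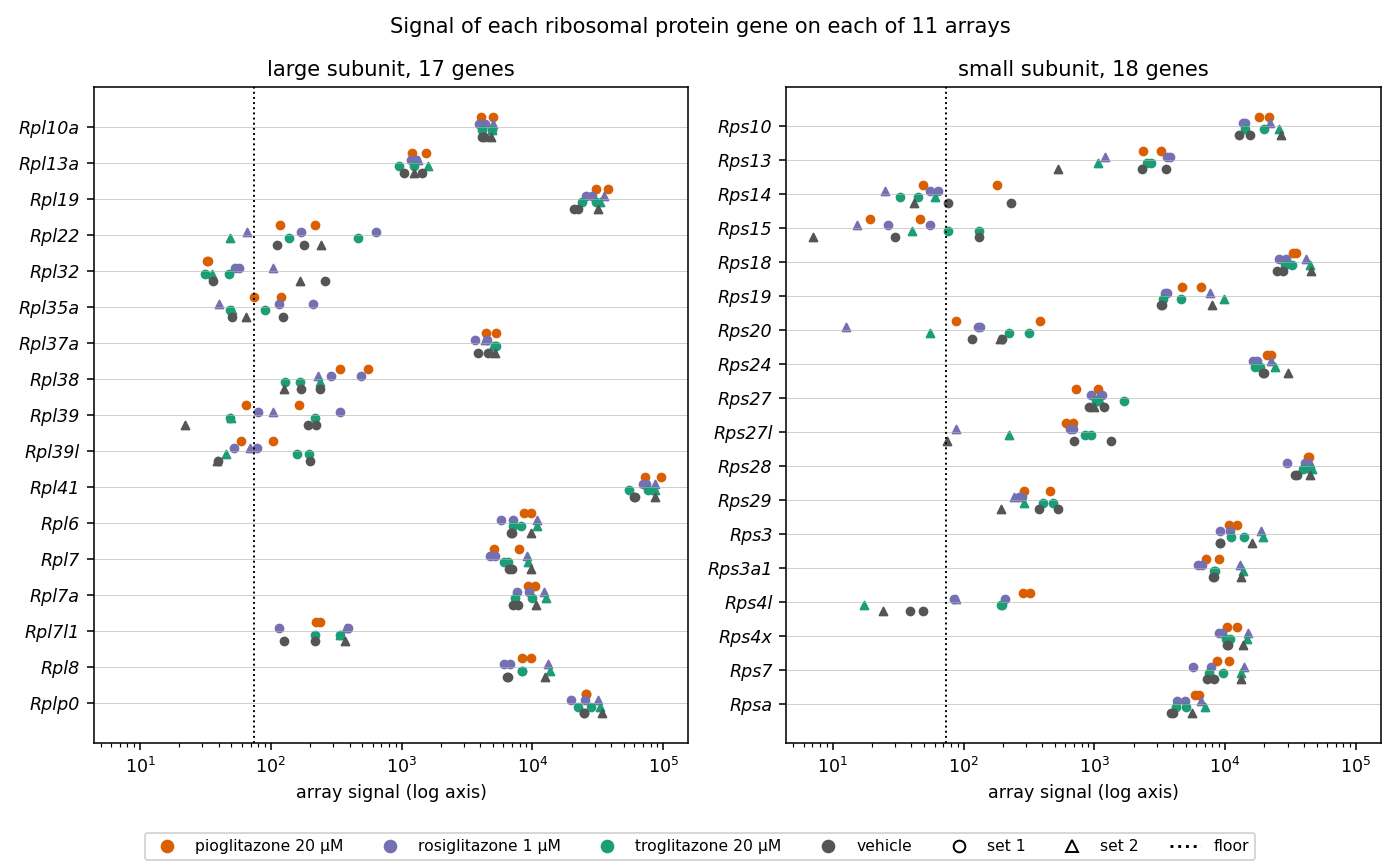
Signal of the representative probe set of each of the 35 ribosomal protein genes on the 11 arrays (horizontal log axis, array signal), large subunit on the left and small subunit on the right; circles are set 1 arrays, triangles set 2 arrays, and the dotted line is the floor of 73.7. Most genes lie above the floor on every array, many with set 2 arrays apart from set 1, and the 9 genes named above reach the floor. Positions of different genes cannot be set against each other.

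With pioglitazone (20 µM) no ribosomal protein gene passed an adjusted p of 0.05, while the values leaned to the higher side as deposited and less so under quantile normalization. By limma 0 of 35 genes passed, against 0.903% of all 11739 tested probe sets (0.63% higher and 0.273% lower), and 10 genes were higher and 0 lower at an unadjusted p under 0.05, against 4.84% higher and 5.01% lower of all. Of the 5803 tested probe sets over the members' lower quartile of signal, 458 were higher and 398 lower at that p. The median log2 fold change of the 35 genes was 0.15, beside -0.08 for all tested probe sets. It was 0.15 for the large subunit and 0.16 for the small subunit, and 23 of 35 genes had a positive value. Under quantile normalization the median was 0.066, beside 0.001 for all tested probe sets, and under median centring 0.34, beside 0.06. Over the 26 genes always above the floor the median was 0.30, with 22 positive. Among these it was 0.37 for the 12 large subunit genes and 0.23 for the 14 small subunit genes. The 95% interval of a member gene reached a median of 0.38 to each side.

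The 3 genes closest to the threshold were Rpsa, Rps19 and Rpl19. Rpsa, a small subunit protein also known as a laminin receptor, had signals of 5842.5 and 6314 with pioglitazone and of 3889, 3982 and 5600.5 with vehicle. Every pioglitazone array lay above every vehicle array, and the vehicle array of set 2 was the closest. The log2 fold change was 0.64 ± 0.15 (SE, 2 arrays against 3, 1.55-fold, limma adjusted p = 0.0609).

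Rps19, which is needed to mature the small subunit and is mutated in Diamond-Blackfan anaemia in humans, had signals of 4721 and 6589 with pioglitazone and of 3317, 3223 and 7914 with vehicle. The groups overlapped, since vehicle in set 2 was the highest of these arrays. With the set as a term the log2 fold change was 0.76 ± 0.18 (1.69-fold, adjusted p = 0.0667). Rpl19, a large subunit protein that bridges to the small subunit, had 37718.5 and 30412 with pioglitazone and 22209, 20748 and 31856 with vehicle. These groups overlapped through the same set 2 array, and the log2 fold change was 0.60 ± 0.16 (1.52-fold, adjusted p = 0.105). Rpl8, which lies close to the peptidyl transferase centre, followed with 0.46 ± 0.14 (adjusted p = 0.196).

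Other settings moved these genes across the threshold. Over 24 alternatives the adjusted p with pioglitazone ran between 0.0207 and 0.852 for Rpsa, 0.0177 and 0.971 for Rps19, and 0.0342 and 0.883 for Rpl19. Rpsa passed in 2 of them, Rps19 in 2 and Rpl19 in 3. Without pioglitazone replicate 1, Rps19 passed (limma adjusted p = 0.0423).

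The 2 largest pioglitazone values belonged to dim probe sets. Rps4l, the transcribed pseudogene related to Rps4x, had signals of 321.8 and 283.9 with pioglitazone, against 48.7, 39.2 and 24.4 with vehicle, which are all under the floor. The mean of its pioglitazone log2 signals lay 4.10-fold above the floor, under which all vehicle arrays lay. This bounds the group means only and takes no account of the set. With the set as a term and vehicle raised to the floor, the log2 fold change was 1.81 ± 0.58 (3.51-fold, limma adjusted p = 0.224). A second, dimmer probe set of Rps4l had a log2 value of -0.36, so the probe sets disagree. Rpl38, a large subunit protein that affects translation of Hox transcripts in mouse embryos, had 551.5 and 339.9 with pioglitazone and 238.6, 170.4 and 126.4 with vehicle. The groups did not overlap, and the log2 fold change was 1.25 ± 0.62 (adjusted p = 0.543). A second probe set of Rpl38, dimmer on average, had 464.1 and 85.9 with pioglitazone and 201.8, 145.4 and 153.7 with vehicle. Its groups overlapped and its log2 value was -0.11, so these probe sets disagree as well. By the brightest probe set of each gene, Rpsa, Rps4l and Rpl38 were the 3 members with both pioglitazone arrays above all vehicle arrays. By the same measure 0 members had both below, against 9.07% above and 10.3% below of all tested probe sets. The dimmer probe set of Rps4l had both pioglitazone arrays (65.7 and 38.3, under the floor) below all vehicle arrays (76.4, 103.1 and 132.3). The lowest values were those of Rpl32 (-0.92), Rpl39 (-0.74), Rpl39l (-0.46), Rpl22 (-0.43) and Rps15 (-0.38), each at the floor on some arrays and none past the test.

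With rosiglitazone (1 µM) the values as deposited centred on 0. Of 35 genes 0 passed by limma, against 1.35% of all tested probe sets (0.784% higher and 0.571% lower), and 1 was higher and 3 were lower at an unadjusted p under 0.05, against 5.16% and 5.35%. The median log2 fold change was -0.002, beside 0 for all tested probe sets, with 17 genes positive and 18 negative. Under quantile normalization the median was -0.093, beside 0. For 16 of the 35 genes the 95% interval lay within 0.5 of 0 on the log2 scale. Changes of 1.5-fold either way fall outside those intervals. For the other genes the interval reached past 0.5 on at least 1 side. Some of these were wide, and others were narrow but lay off 0, such as that of Rps24 (-0.53 to -0.04). The smallest adjusted p was that of Rps13, a small subunit protein at the bridge to the large subunit. Its signals were 3806.5, 3594.5 and 1200 with rosiglitazone and 3544, 2319 and 532.1 with vehicle. The groups overlapped, and in each the set 2 array was the lowest. Its log2 fold change was 0.64 ± 0.23 (adjusted p = 0.295). Further values at the upper end were 0.87 for Rpl38, 0.65 for Rps4l, 0.47 for Rpl35a and 0.27 for Rpl19. The dimmer probe sets of Rpl38 and Rps4l had 0.21 and -0.36. At the lower end were Rpl32 (-0.83), Rps20 (-0.59), Rps14 (-0.57), Rpl39l (-0.45) and Rps29 (-0.37). Only Rps4l had every rosiglitazone array above every vehicle array, and 0 members lay below, against 4.78% and 6.01% of all tested probe sets.

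With troglitazone (20 µM) again 0 of 35 genes passed by limma, against 1.33% of all tested probe sets (0.775% higher and 0.554% lower). At an unadjusted p under 0.05, 2 genes were higher and 1 lower, against 4.02% and 4.3%. The median log2 fold change was 0.13, beside -0.03 for all tested probe sets, and 0.039, beside 0, under quantile normalization. It was 0.06 for the large subunit, with 10 of 17 genes positive, and 0.17 for the small subunit, with 16 of 18 positive. Rps3, which lines the entry of the messenger RNA channel, had signals of 14070, 11104 and 19383 with troglitazone and 9187, 9115 and 16073 with vehicle. Within each set the troglitazone arrays lay above the vehicle arrays, while over both sets the groups overlapped. Its log2 fold change was 0.39 ± 0.13 (1.31-fold, adjusted p = 0.287), the smallest adjusted p of the members, and that of Rpl8 was 0.28 (adjusted p = 0.561).

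The highest troglitazone values after Rps4l (0.94) were those of Rps27l (0.44), a p53-inducible relative of Rps27, Rpl7l1 (0.43), a relative of Rpl7, Rps3 (0.39) and Rpl39l (0.37), a relative of Rpl39 that is enriched in testis. The lowest were Rpl32 (-1.0), Rps14 (-0.57), Rpl39 (-0.47), Rps24 (-0.21) and Rpl35a (-0.15). By the brightest probe set of each gene, no member had all troglitazone arrays above or below all vehicle arrays, against 4.77% and 6.07% of all tested probe sets. The dimmer probe set of Rps4l had all troglitazone arrays, each under the floor, below all vehicle arrays.

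**Figure D2:**
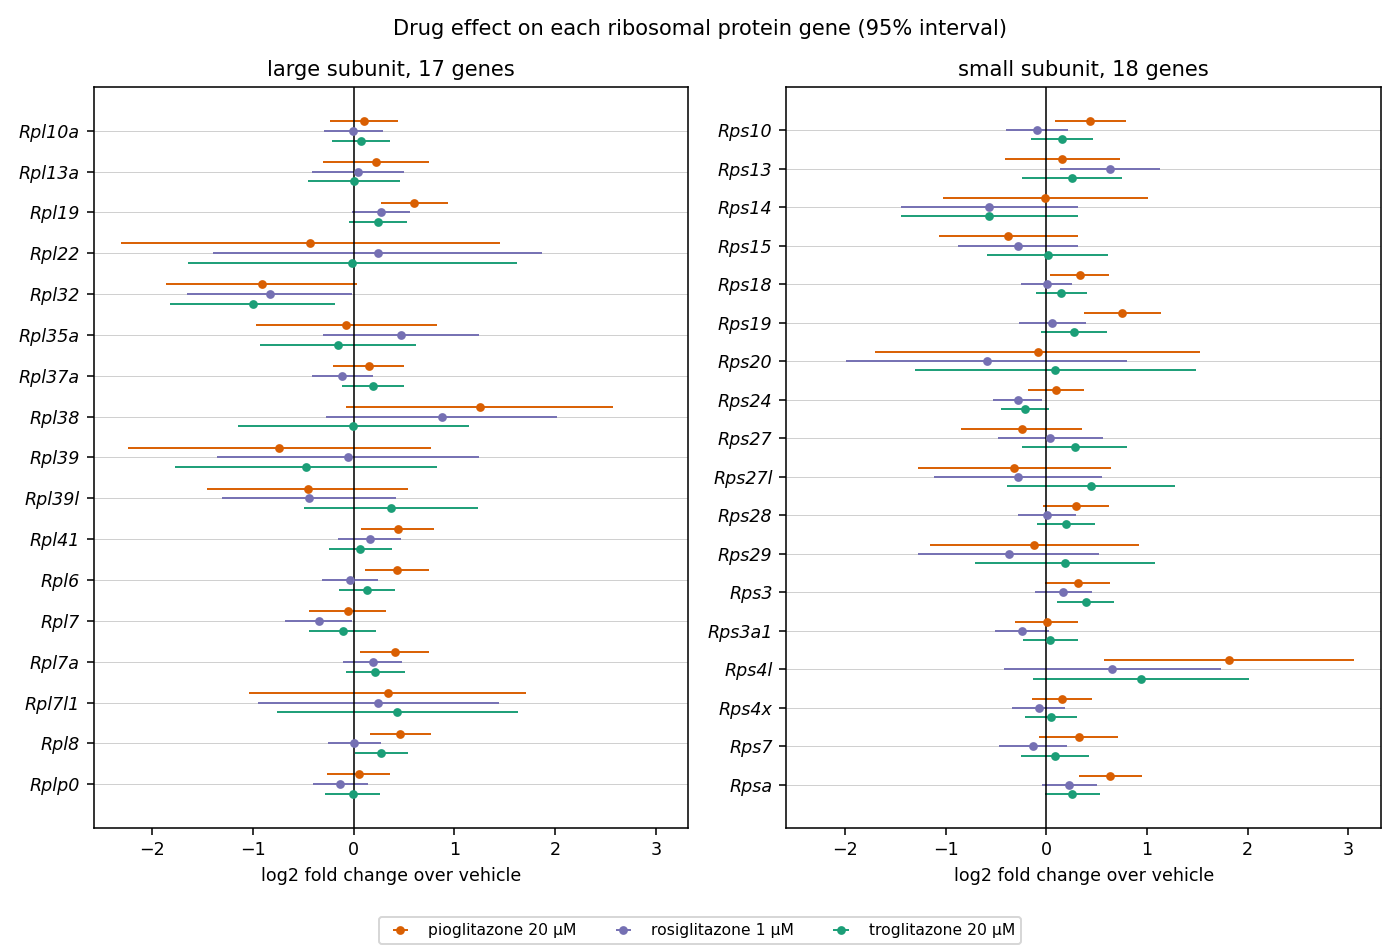
Log2 fold change over vehicle (horizontal axis) of each ribosomal protein gene for pioglitazone 20 µM, rosiglitazone 1 µM and troglitazone 20 µM, with 95% intervals, large subunit on the left and small subunit on the right. Bright genes have narrow intervals near 0 with pioglitazone mostly to the right, dim genes such as Rpl22 and Rps4l have wide ones, and 0 of 35 genes passed an adjusted p of 0.05 for any drug.

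Rpl32 was the member with the lowest value for each drug, and its signal was close to the floor. It was 32.7 and 32.8 with pioglitazone, 56.6, 53.3 and 104.3 with rosiglitazone and 48.1, 31.4 and 35.7 with troglitazone, against 261, 36.4 and 166.6 with vehicle. All pioglitazone and troglitazone arrays were under the floor, and so was vehicle replicate 2. The mean of the vehicle log2 signals lay 1.58-fold above the floor, under which all pioglitazone and troglitazone arrays lay. This bounds the group means only. The arrays overlapped, since vehicle replicate 2 (36.4) was lower than troglitazone replicate 1 (48.1). The limma adjusted p was 0.529 for pioglitazone, 0.460 for rosiglitazone and 0.407 for troglitazone.

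Rplp0, the stalk base protein used as a reference transcript, had values near 0 on the log2 scale for each drug. Its signals were 25591 and 25724 with pioglitazone, 19750, 25173 and 31815 with rosiglitazone and 27792, 22314 and 32872 with troglitazone, against 24935, 24592 and 33991 with vehicle. All groups overlapped, and the set 2 array was the highest of each group that has one. The log2 fold changes were 0.05 (95% interval -0.26 to 0.37) with pioglitazone, -0.13 (-0.40 to 0.14) with rosiglitazone and -0.01 (-0.28 to 0.26) with troglitazone, and the sign of the pioglitazone and troglitazone values turned under some alternatives. Rpl13a, another reference transcript, had log2 fold changes of 0.22 with pioglitazone, 0.04 with rosiglitazone and 0.00 with troglitazone, none past the test.

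**Figure D3:**
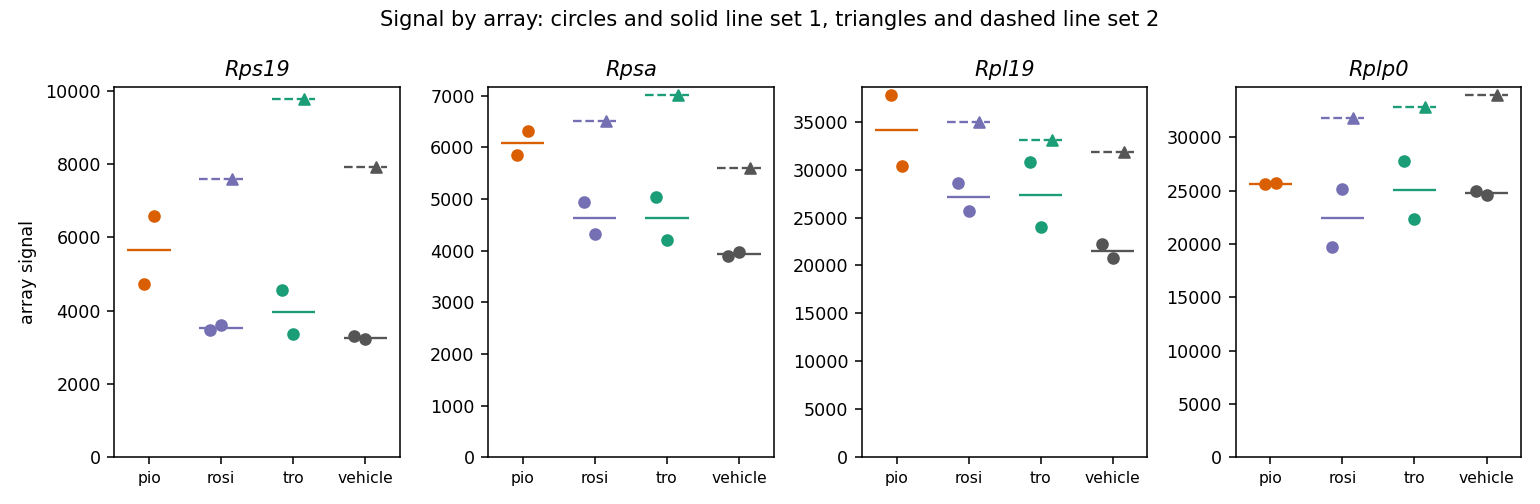
Array signal (vertical axis from 0) of Rps19, Rpsa, Rpl19 and Rplp0 by group, with circles for set 1, triangles for set 2 and lines for the mean of each group within a set. The pioglitazone arrays of the first 3 genes lie above the set 1 vehicle arrays, the set 2 arrays lie above the set 1 arrays of their own group, and for Rplp0 the 2 pioglitazone arrays lie just above the set 1 vehicle arrays while the other drugs overlap them or lie below vehicle in set 2.

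Over the mean of the 3 drugs against vehicle, 0 of 35 genes passed, against 2.14% of all tested probe sets (1.28% higher and 0.86% lower), and 7 genes were higher and 1 lower at an unadjusted p under 0.05, against 4.8% and 5.67%. The median was 0.08, beside -0.03 for all, and its sign turned under quantile normalization (-0.0099). Rpsa had 0.37 ± 0.11 (limma adjusted p = 0.112) and Rpl19 0.37 ± 0.11 (adjusted p = 0.137). Without vehicle replicate 2, Rpl32 passed on the lower side (adjusted p = 0.0452). No member had all 8 drug arrays above or below the 3 vehicle arrays, against 1.29% and 1.94% of all tested probe sets.

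Troglitazone and pioglitazone, which differ in that troglitazone carries a chroman ring and pioglitazone a substituted pyridine, were compared at the same dose and time, the only such pair. Of 35 genes 0 passed by limma, against 0.0341% of all tested probe sets (0.0256% higher and 0.00852% lower). At an unadjusted p under 0.05, 0 genes were higher and 5 lower with troglitazone, against 3.19% and 3.16% of all. The median log2 difference, troglitazone minus pioglitazone, was -0.09, beside 0.04 for all tested probe sets. Rps19 had the smallest adjusted p, with a difference of -0.48 (95% interval -0.87 to -0.10, adjusted p = 0.650), and Rpsa followed with -0.38 (-0.69 to -0.06, adjusted p = 0.663). For Rpl38 the difference was -1.26 (-2.58 to 0.07, adjusted p = 0.816) by its brightest probe set and -0.25 by the other. By the brightest probe set of each gene, all 3 troglitazone arrays of Rpl38 (128.8, 166.6 and 236.7) and of Rps4l (193.5, 197.6 and 17.2) lay below both pioglitazone arrays. By that measure 0 members lay above, against 9.02% below and 7.23% above of all tested probe sets. The highest differences were those of Rpl39l (0.82), Rps27l (0.76), Rps27 (0.53), Rpl22 (0.42) and Rps15 (0.39). In 10 genes the 95% interval lay within 0.5 of 0. For the other genes it reached past 0.5 on at least 1 side. Some of these intervals were wide, and others were narrow but lay off 0, such as that of Rps24 (-0.59 to -0.03). Rosiglitazone was given at another dose, so its values stand beside the others with no comparison.

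The arrays of one drug were not alike. The median deviation of the 35 genes from the vehicle mean of the same set was 0.15 and 0.31 (log2) on the pioglitazone arrays, 0.05, -0.10 and 0.02 on the rosiglitazone arrays and 0.29, -0.01 and 0.01 on the troglitazone arrays. Of 35 genes, 22 and 26 lay above that mean on the pioglitazone arrays and 25, 17 and 18 on the troglitazone arrays. The array with the larger pioglitazone value, replicate 2, had a β-actin 3′ to 5′ control ratio of 4.86, against 1.91 for replicate 1. With that ratio as a covariate the pioglitazone median was 0.10 and 0 genes passed. Within a group and set the ratio differs mainly between these 2 arrays, so the covariate rests largely on them. Troglitazone replicate 1 lay within the range of the pioglitazone arrays, and the other troglitazone arrays near 0. The large minus small difference of the medians was -0.01 for pioglitazone, 0.09 for rosiglitazone and -0.11 for troglitazone. The spread between replicates of this difference was 0.07. When single arrays were left out it ranged from -0.20 to 0.03 for pioglitazone, from 0.017 to 0.093 for rosiglitazone and from -0.15 to -0.05 for troglitazone, and the troglitazone value stayed below 0 in all 14 other alternatives. These differences are over all 35 genes. Over the genes always above the floor, the large and small subunit medians were 0.37 and 0.23 for pioglitazone. They were 0.02 and -0.04 for rosiglitazone, and 0.10 and 0.19 for troglitazone. The differences between subunits were not tested.

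The clearest pattern in these transcripts lay between the 2 sets of arrays. Of the 35 genes 16 passed (45.7%), 14 higher and 2 lower in set 2, against 5.38% of all tested probe sets (3.3% higher and 2.09% lower). Of the 5803 probe sets over the members' lower quartile of signal 381 were higher and 233 lower. At an unadjusted p under 0.05, 17 were higher and 2 lower, against 8.12% and 10.4% of all. The count of 16 fell to 7 under quantile normalization and to 3 without the intensity trend. The genes higher in set 2 were Rpl6, Rpl7, Rpl7a, Rpl8 and Rplp0 of the large subunit and Rps3, Rps3a1, Rps4x, Rps7, Rps10, Rps18, Rps19, Rps24 and Rpsa of the small subunit. The median log2 difference, set 2 minus set 1, was 0.29 for members and -0.17 for all tested probe sets. For all tested probe sets the median moved to 0.01 under quantile normalization and to 0.11 under median centring, and relative to it the members stood at 0.45 as deposited, 0.05 under quantile normalization and 0.58 under median centring. In 12 genes all set 2 arrays lay above all set 1 arrays and in 2 all lay below, against 3.03% and 4.06% of all tested probe sets.

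Rps19 had signals of 7602, 9765 and 7914 in set 2, against a lowest of 3223, a median of 3543 and a highest of 6589 over the 8 arrays of set 1. The sets did not overlap, and the highest set 1 array was pioglitazone replicate 2. The log2 difference was 1.23 ± 0.13 (2.35-fold, limma adjusted p = 0.000162). Rpl8 had 13157, 13568 and 12557 in set 2, against 6062, 7482 and 9804 (lowest, median, highest) in set 1. These sets also did not overlap, with a log2 difference of 0.90 ± 0.11 (1.87-fold, adjusted p = 0.000258). Rps7, a small subunit protein that binds Mdm2, was 1.77-fold higher (adjusted p = 0.00223), Rps3a1 1.76-fold (adjusted p = 0.000637), Rps3 1.72-fold (adjusted p = 0.000899) and Rplp0 1.37-fold (adjusted p = 0.0249). Rps10 (1.66-fold) and Rps18 (1.56-fold), whose annotated starts carry the tracts shown above, were also higher, whereas Rps27, Rpl38 and Rpl35a, which have such tracts as well, did not pass (-0.08, -0.23 and -0.53).

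Rps13 and Rps27l were lower in set 2. Rps27l had signals of 88.3, 223.5 and 75.2 in set 2, against 606.6, 694.6 and 1335 (lowest, median, highest) in set 1. No array overlapped, and the log2 difference was -2.87 ± 0.34 (7.29-fold lower, adjusted p = 0.000243). Rps13 had 1200, 1073 and 532.1 in set 2, against 2319, 2959 and 3806.5 in set 1, a difference of -1.78 ± 0.20 (3.44-fold lower, adjusted p = 0.000162). Both are measured by probe sets with the suffix _r_at, which the array design gives to sets chosen under relaxed rules, as it does for Rpl32 and Rpl38, which did not pass, and for Rps24, which passed as higher (0.49, adjusted p = 0.00839). Of all 815 tested probe sets with this suffix 12.3% passed as lower in set 2, against 1.33% of the 10924 others. Among the 48 tested member probe sets, 3 of 8 with the suffix were lower and 1 higher, and 0 of the 40 others were lower and 15 higher.

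**Figure D4:**
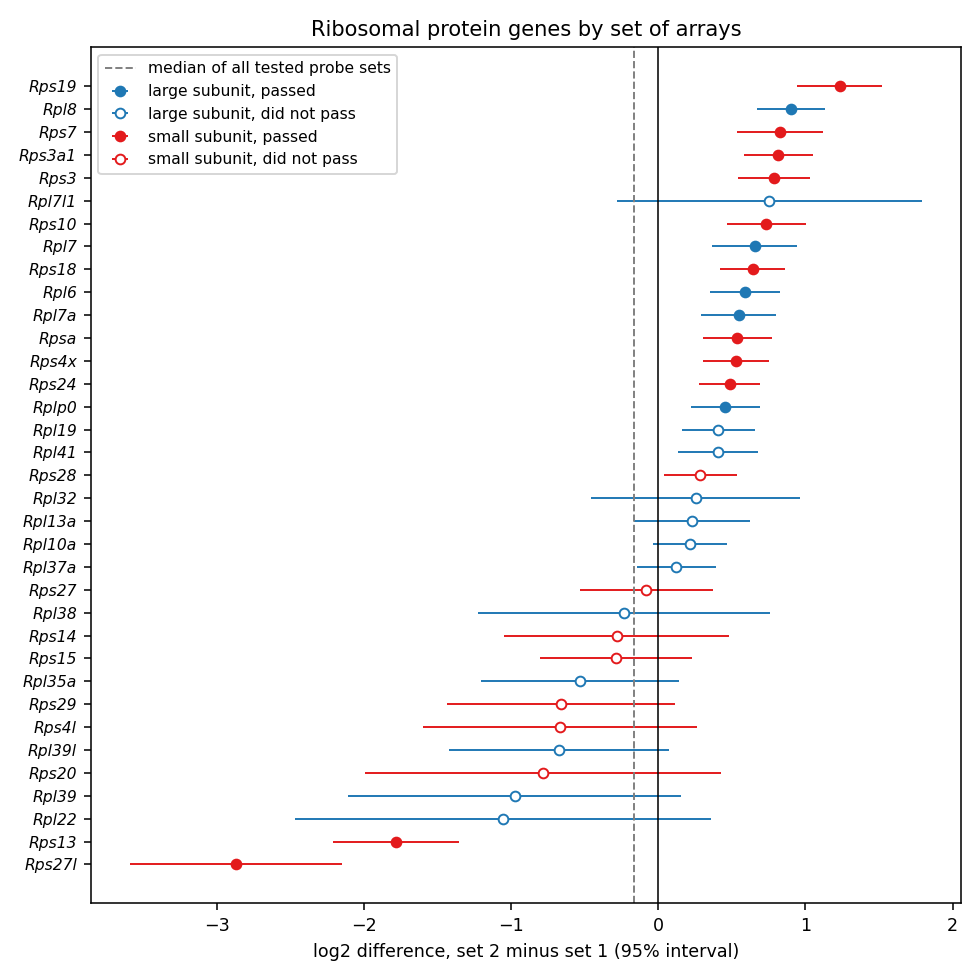
Log2 difference, set 2 minus set 1 (horizontal axis), of the 35 ribosomal protein genes with 95% intervals, ordered by value; filled points passed an adjusted p of 0.05 and the dashed line is the median of all tested probe sets. Of the 16 genes that passed, 14 lie to the right between Rplp0 at 0.46 and Rps19 at 1.23, and Rps13 and Rps27l lie far to the left.

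One of 2 measures of RNA quality, the β-actin ratio, moved with the sets. The 3′ to 5′ signal ratio of the β-actin control probe sets was 3.74 (rosiglitazone), 3.79 (troglitazone) and 3.90 (vehicle) on the set 2 arrays. On the set 1 arrays it was 1.91 and 4.86 (pioglitazone), 2.09 and 2.09 (rosiglitazone), 2.04 and 1.79 (troglitazone) and 2.23 and 2.27 (vehicle). The same ratio of the GAPDH control did not separate the sets. It was 1.68 (rosiglitazone), 1.75 (troglitazone) and 2.08 (vehicle) in set 2 and ran from 1.07 to 2.19 in set 1. The share of tested probe sets at the floor was 25.7% to 29.2% in set 2 and 13.7% to 21.3% in set 1. By β-actin, pioglitazone replicate 2 was the one set 1 array with a ratio as high as set 2. Of the 14 genes higher in set 2, 10 (71.4%) were higher on that array than on pioglitazone replicate 1. The same held for 19 of all 35 members (54.3%), 58.7% of all 387 probe sets higher in set 2 and 44.5% of all tested probe sets. With the β-actin ratio as a covariate 2 of 35 genes passed between the sets. Outside pioglitazone this ratio nearly coincides with the set, so the set difference is estimated with less precision in that fit. The term for the ratio rests largely on the difference between the 2 pioglitazone arrays. The fall in the count therefore cannot show what part the ratio has in the set difference, which was not tested. Without rosiglitazone replicate 4 the count was 8 and without troglitazone replicate 4 it was 10, each leaving 2 arrays in set 2. From the labels, culture, extraction and hybridisation cannot be told apart as properties of a set.

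**Figure D5:**
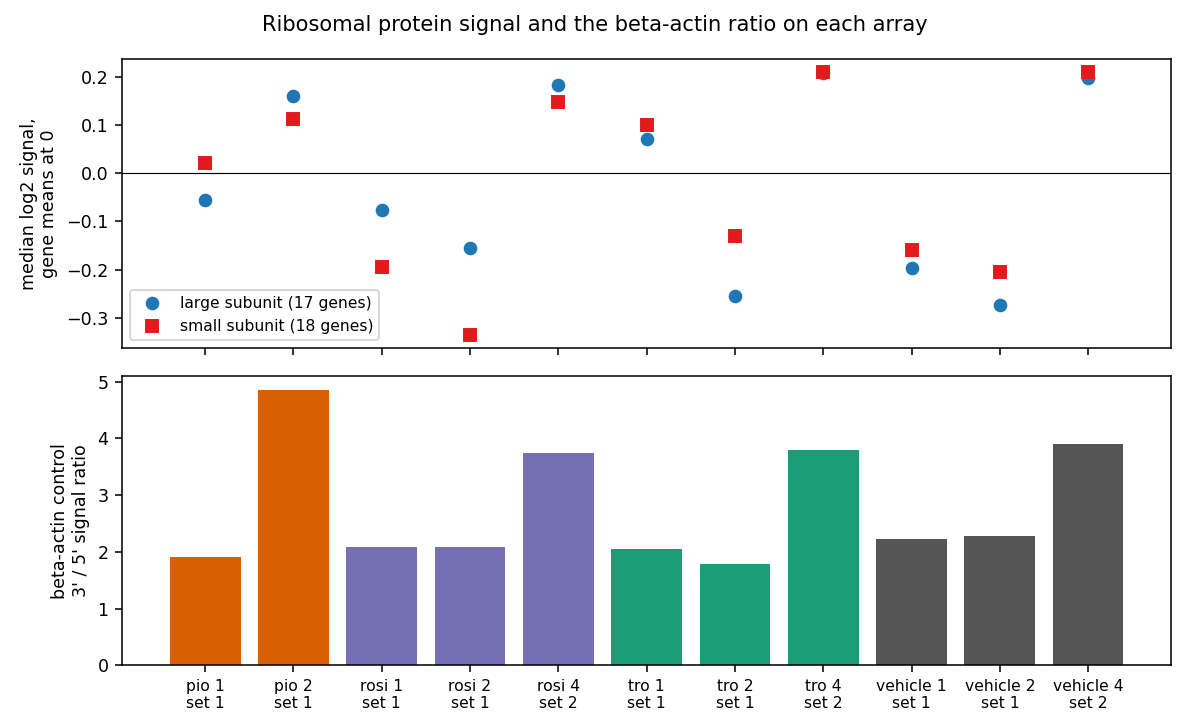
Upper panel: median log2 signal of the 17 large subunit genes (circles) and the 18 small subunit genes (squares) on each array after each gene's mean was set to 0; lower panel: 3′ to 5′ signal ratio of the β-actin control on the same arrays, as bars from 0. The set 2 arrays and pioglitazone replicate 2 have the highest ratios and lie above 0 in the upper panel for both subunits, as does troglitazone replicate 1 with a low ratio.

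No member's drug effect differed between the sets past the test. A limma model that gave each group its own mean in each set found 0 of 35 genes with a different rosiglitazone effect and 0 with a different troglitazone effect, and 0 of all tested probe sets for either drug (437 and 288 at an unadjusted p under 0.05). For rosiglitazone the members' median log2 fold change was 0.02 in set 2 and -0.03 in set 1, and 18 of 35 genes had the same sign in both. For troglitazone it was 0.01 in set 2 and 0.13 in set 1, with 16 of 35 genes of the same sign. For both drugs the genes not counted as of the same sign include some without a sign in set 2. Their drug and vehicle arrays there were both raised to the floor, which gives a value of 0, as for Rps14 and Rps15. Set 2 holds 1 array a group, so a difference between the sets would have to be large to pass.

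Probe sets of the same gene did not always agree. Of the 35 genes 10 had more than 1 tested probe set, and for the drugs none of their 13 further probe sets passed. Rps28 had 3 probe sets, with log2 differences between set 2 and set 1 of 0.29 (adjusted p = 0.198), 0.62 (adjusted p = 0.00932) and -2.28 (adjusted p = 0.000611). The first and the last were designed from the same source sequence, and the last has the suffix _r_at. A second probe set of Rpl10a was 2.10-fold higher in set 2 (adjusted p = 0.000899), while its brighter one did not pass (0.21). The probe sets that stand for Rpl7 and Rps24 share 1 source sequence in the annotation, so the gene behind the Rps24 value is uncertain. Rpl19 had a second, dim probe set with 0.00 for pioglitazone, where the bright one had 0.60.

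Among other genes of translation few passed. Of 12 tested elongation and termination factors 0 passed for any drug or between the sets. Their median log2 fold changes were 0.10 for pioglitazone, 0.19 for rosiglitazone and 0.14 for troglitazone. Of 34 tested initiation factors and their binding proteins 1 passed for a drug: Pdcd4, an inhibitor of the helicase eIF4A, fell with rosiglitazone (-2.31 ± 0.31, 4.96-fold lower, limma adjusted p = 0.000901) and troglitazone (-1.98 ± 0.31, adjusted p = 0.00255). Its mean signals were 439 with rosiglitazone and 506 with troglitazone, against 1964 with vehicle, and with pioglitazone its value was -1.19 (adjusted p = 0.178). Between the sets Eif3c was higher (0.56) and Eif4a1 lower (-1.13) in set 2.

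Of 62 tested genes of ribosome assembly and RNA polymerase I 0 passed for any drug, with medians of 0.16, 0.04 and 0.14 for pioglitazone, rosiglitazone and troglitazone. In set 2, 5 of the 62 were higher and 0 lower, against 3.3% and 2.09% of all tested probe sets. They were Ncl and Npm1, abundant nucleolar proteins, Nop10 and Nop56, parts of particles that modify ribosomal RNA, and Sbds, which helps release a factor from the large subunit. The log2 differences lay between 0.49 for Sbds and 1.05 for Ncl. Of 9 tested further genes with TOP transcripts or ribosome-bound products 0 passed for a drug, and Tpt1, a classical TOP transcript, was higher in set 2 (0.46). Of 14 tested genes of mTOR and S6 kinase signalling 0 passed in any comparison.

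The ribosome of mitochondria has its own proteins, and a few of their transcripts passed with a drug. Of 61 tested genes 1 passed with pioglitazone, 2 with rosiglitazone and 0 with troglitazone, against 0.903%, 1.35% and 1.33% of all tested probe sets. Mrpl51 rose with pioglitazone (0.87 ± 0.16, 1.83-fold, limma adjusted p = 0.0143) and with rosiglitazone (0.63 ± 0.14, 1.55-fold, adjusted p = 0.035). Mrpl12, which also binds the mitochondrial RNA polymerase, rose with rosiglitazone (0.76 ± 0.17, 1.69-fold, adjusted p = 0.0414), and its pioglitazone value was 0.81 (adjusted p = 0.0756). With troglitazone the values were 0.24 for Mrpl51 and 0.46 for Mrpl12. Mrps26 passed in the mean of the drugs (0.83 ± 0.18, adjusted p = 0.0206). The medians of the 61 genes were 0.25 for pioglitazone, 0.21 for rosiglitazone and 0.09 for troglitazone, beside 0.15, -0.002 and 0.13 for the cytosolic ribosomal proteins. Whether the 2 families differ was not tested. Between the sets 5 were higher and 1 lower in set 2, against 3.3% and 2.09% of all tested probe sets, and Mrpl51 was among the higher (0.76).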

How the data were processed

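Total RNA of 11 samples was measured on 1-colour oligonucleotide arrays of 12488 probe sets. The deposited linear signal intensities run from 0.4 to 224475. Their mean after trimming 2% at each end is 500.289 to 500.433 on every array, so the authors had already scaled them. Software and probe summary: not given in the sources used here. After 66 control probe sets were set aside, signals under the floor of 73.7 were raised to it, log2 was taken, and 11739 probe sets above the floor on at least 2 arrays were tested (683 were not).

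Differences come from limma 3.58.1 in R 4.3.3, with a term per group and for the set on all 11 arrays (6 residual degrees of freedom), an intensity trend, two-sided tests and Benjamini-Hochberg adjustment over all tested probe sets of each comparison. An adjusted p under 0.05 is called passed. After ± stands the standard error of a log2 value, and intervals are at 95%. Fold changes are adjusted for the set. Dim transcripts are limited by the floor, and the precision by the few arrays. The fit was tested on simulated data.

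Of the probe sets 10833 name a single gene, 396 name more and 1193 name no gene in the annotation. All 49 member probe sets matched the GRCm38.p6 gene table, and 0 symbols needed updating. The array files name no build, and coordinates belong to the RefSeq promoters only, which do not hold Rpl32, Rpl7, Rpl8, Rps14, Rps20, Rps29 and Rps4l.

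Members and gene lists (translation factors, ribosome assembly, TOP transcripts, mitochondrial ribosome, mTOR signalling, reference genes and cell type markers) were chosen with earlier results of these data known, from textbook knowledge, and no list was tested as a list. Named are members that passed, the 5 highest and 5 lowest per comparison, the 3 brightest and 3 dimmest probe sets, a set of members given by name, and list genes that passed. The comparison of the sets was added after seeing the data. Replicate numbers do not pair the samples. Alternatives were median centring, quantile normalization, an added constant, other floors (10th and 50th percentile), no filter, no set term, set 1 alone, replicate block, no trend, a fit without the other groups, the β-actin ratio as a covariate, leaving out the 2 arrays that stand apart, all member probe sets, and leaving out each array.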

Additional observations from a re-analysis of the deposited data

How the results depend on the processing

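No ribosomal protein gene passed for rosiglitazone, troglitazone or troglitazone against pioglitazone under any alternative run. For pioglitazone 0 of 35 passed as reported, 3 under median centring (Rpl19, Rps19 and Rpsa), and 1 each with the floor at the 50th percentile (Rpsa), an added constant (Rpl19) and the replicate block (Rpl19, adjusted p = 0.0474). Same-numbered samples did not deviate together (correlations between -0.04 and 0.01), so the numbers are not taken as pairs. When single arrays were left out the count was 0 to 1 for pioglitazone and for the mean of the drugs, 0 for the other drug comparisons, and 8 to 17 between the sets. Between the sets 16 passed as reported, 7 under quantile normalization (5 higher, 71.4%, against 87.5% as reported) and 3 without the intensity trend. With the β-actin ratio as a covariate, which outside pioglitazone nearly coincides with the set, 2 passed. Under median centring 21 passed (90.5% higher). The median set difference of 0.29 was 0.054 under quantile normalization, 0.68 under median centring, 0.41 with the floor at the 10th percentile and 0.43 at the 50th. The pioglitazone median of 0.15 was 0.34 under median centring, 0.26 with the floor at the 50th percentile and 0.066 under quantile normalization, and the troglitazone median of 0.13 was 0.24 under median centring and 0.039 under quantile normalization. The median for the mean of the drugs (0.08) turned to -0.0099 under quantile normalization. The large minus small difference for pioglitazone (-0.01) was -0.12 with the floor at the 50th percentile, -0.10 in a fit of only the groups compared, -0.11 with the β-actin ratio as a covariate and -0.12 without the 2 arrays that stand apart, and that for rosiglitazone (0.09) was 0.24 under quantile normalization. Leaving out single arrays gave medians of 0.12 to 0.27 for pioglitazone, -0.06 to 0.02 for rosiglitazone, 0.08 to 0.18 for troglitazone, 0.04 to 0.17 for the mean of the drugs, -0.19 to -0.031 for troglitazone against pioglitazone and 0.23 to 0.40 between the sets. It gave large minus small differences of -0.20 to 0.032 for pioglitazone, 0.017 to 0.093 for rosiglitazone and -0.15 to -0.05 for troglitazone. The causes were not tested, apart from the smaller number of arrays where arrays were left out. Over 4826 values of single genes under alternatives, 81 changed side of the threshold, 8 of them in drug comparisons, and 0 passed in opposite directions.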

Other observations

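The 39 ribosomal protein probe sets paired with several genes gave values like those of the members. Their signal cannot be assigned to a single gene. By limma 0 of 39 passed for any drug. At an unadjusted p under 0.05, 11 were higher and 0 lower with pioglitazone, against 4.84% and 5.01% of all tested probe sets. Their median log2 fold changes were 0.21 for pioglitazone, -0.06 for rosiglitazone and 0.06 for troglitazone. Between the sets 21 were higher and 1 lower in set 2, against 3.3% and 2.09% of all tested probe sets, with a median of 0.53.

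Among genes used as references in expression assays 7 of 11 were tested. B2m, the light chain of class I histocompatibility molecules, fell in the mean of the 3 drugs (-0.79 ± 0.16, limma adjusted p = 0.0174), with mean signals of 3150 for pioglitazone, 3310 for rosiglitazone and 3950 for troglitazone, against 5897 for vehicle. Actb was lower in set 2 (-0.79, adjusted p = 0.00789), where Rplp0 was higher (0.46). Signals of the 3′ control probe set of 18S ribosomal RNA lay at 7901 and 26094 on the pioglitazone arrays, 9311 to 27585 on the rosiglitazone arrays and 8985 to 26798 on the troglitazone arrays, against 7981 to 19447 on the vehicle arrays. These groups overlap.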
